A study of Mus musculus with 24 samples.

Results

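Ribosomal RNA was depleted with the Ribo-Zero kit from RNA of 2 sources, and the 2 resulting libraries, 1 from each tissue, are compared here gene by gene in exons and in introns. They are 2 of the 16 libraries with a file among the 24 samples of the series, and they were chosen by the depletion kit in their titles. CCE is a mouse embryonic stem cell line of the 129/SvEv strain. It had been differentiated by withdrawal of LIF, the cytokine that keeps embryonic stem cells undifferentiated, and by 0.266 uM retinoic acid for 5 days. Fetal head (FH) was tissue of FVB/N embryos at 14.5 dpc (days post coitum), a mixture of brain, skeleton, muscle, skin, eye and blood. For each library 5 ug of DNase I treated total RNA went through 1 round of Ribo-Zero, was hydrolysed for 4 min and was copied with random hexamers, without marking the strand. The other libraries were depleted with the RiboMinus kit, 8 from CCE and 6 from FH, and are used only to see whether a difference was also present in other RNA of the same tissues. They hold the same cDNAs sequenced at 2 places and are not independent of each other. With 1 Ribo-Zero library per tissue there is no spread between replicates and no test was made. Tissue, mouse strain, culture and RNA preparation cannot be told apart.

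A gene is first copied whole into pre-mRNA, from which introns are cut out and, as a rule, quickly destroyed, while the joined exons leave the nucleus as mRNA that can last for hours or days. Depletion of ribosomal RNA, unlike selection for poly(A) tails, keeps pre-mRNA and unpolyadenylated RNA in the library. Intron tags therefore come mainly from nascent and unspliced RNA and exon tags mainly from mature RNA. In long genes of the nervous system the introns can exceed the exons in length many times.

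The CCE library listed 28708715 unique tags and the FH library 48426051, of which 26345467 and 46226046 lay outside the mitochondrial chromosome and set the scale of all ratios. Of these, 66.1% lay in exons of protein-coding genes in CCE and 44.4% in FH. Introns of protein-coding genes held 21.5% of tags in CCE (Wilson 95% interval 21.49 to 21.52) and 43.8% in FH (43.81 to 43.84), a share 2.04-fold higher in FH. There were 0.325 intron tags for each exon tag in CCE and 0.988 in FH. Bases at least 10 kb from any annotated gene, 1151 Mb in all, held 1.20% of tags in CCE and 2.20% in FH. That is an RPKM (tags per kb, scaled to library size) of 0.0104 and 0.0191, or 4.46% and 3.99% of the mean density in introns of the same library. In 2366 genes with at most 2 exon tags, a limit set on raw tags in libraries of unequal depth, the RPKM over introns was 0.00975 in CCE and 0.00592 in FH. Distinct positions made up 88.7% of intron tags in CCE and 83.9% in FH, and 49.6% and 51.9% of exon tags. In the RiboMinus libraries the intron share was 10.9% to 21.4% in CCE (median 14.5%, n = 8) and 20.1% to 37.9% in FH (median 31.8%, n = 6). These libraries mix cDNA that was sheared with RNA that was hydrolysed, as the Ribo-Zero RNA was. Sheared libraries held 10.9% to 13.5% in CCE (n = 4) and 20.1% to 24.2% in FH (n = 2), and hydrolysed libraries 15.5% to 21.4% in CCE (n = 4) and 31.4% to 37.9% in FH (n = 4), so the tissues did not overlap within either method. Library depth and the intergenic density were also higher in FH, and their part in the intron share was not tested. Intervals and bounds cover counting error only and take each tag as independent. Tags with the same start may be copies of 1 molecule, in which case the intervals are too narrow.

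**Figure D1:**
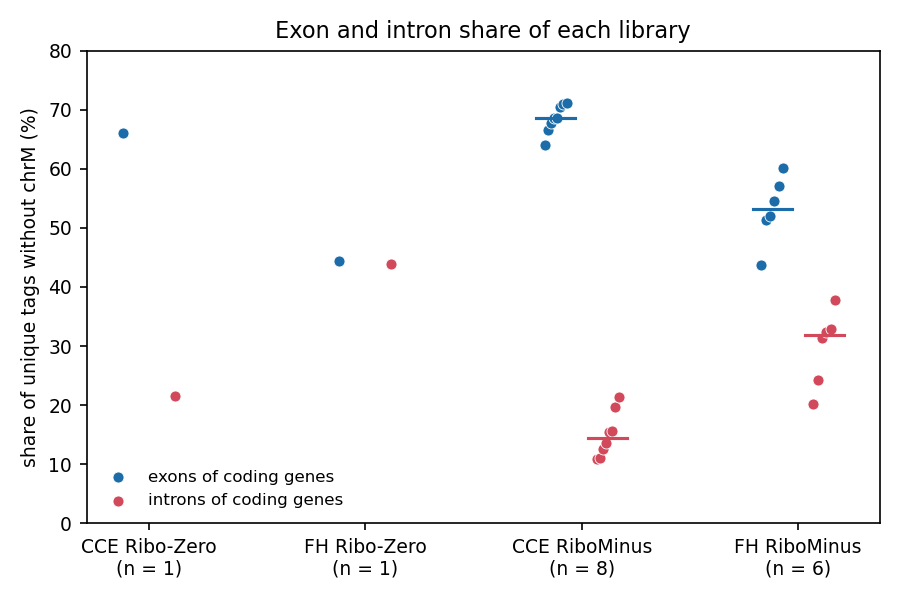
Share of unique tags outside the mitochondrial chromosome, in percent, that lay in exons and in introns of protein-coding genes, for each library. Points are single libraries, blue for exons and red for introns, and lines are medians of the RiboMinus libraries. The FH Ribo-Zero library has 43.8% of its tags in introns and the CCE Ribo-Zero library 21.5%, and the RiboMinus libraries of FH reach from 20.1% to 37.9% against 10.9% to 21.4% in CCE.

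Of the genes called in both exons and introns, all but 10 were called in the same direction. A gene was called higher or lower where the whole 95% counting interval of its FH to CCE ratio lay past 2-fold, for genes with at least 10 tags in the 2 libraries together. Of 22367 protein-coding genes, 3834 had no exon tag in either library, 2154 had under 10, and 16264 were considered. Exons were higher in FH in 2694 genes (16.6%) and lower in 3620 (22.3%). Introns of 14519 genes were considered, and they were higher in FH in 3450 (23.8%) and lower in 710 (4.89%). Among 13977 genes with enough tags in both, exons and introns were both higher in 1885 (13.5%) and both lower in 596 (4.26%). The 2 were called in opposite directions in 10 genes (0.0715%), all with lower exons and higher introns, and in no gene the other way round. Exons were lower with introns not called in 2547 genes, and introns were higher with exons not called in 1502. The log2 ratios of exons and introns had r = 0.869 across these 13977 genes. Genes are not independent replicates, and both ratios come from the same 2 libraries and scale.

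The 2 distributions were shifted against each other. The median log2 ratio was -0.45 for exons and 0.54 for introns, that is 0.735-fold and 1.46-fold. Within 11746 genes with at least 10 tags in each of the 4 counts, the intron log2 ratio minus the exon log2 ratio had a median of 1.05. This difference does not depend on the scale of the libraries. It was 0.90 in the summed RiboMinus tags of 9971 of these genes against 1.09 in Ribo-Zero for the same genes. Those sums mix 4 sheared and 4 hydrolysed libraries of CCE with 2 and 4 of FH, and the difference was not split by method. The direction of the exon median did depend on the scale. Scaling to tags in exons of protein-coding genes moved every log2 ratio up by 0.57, setting the median ratio of abundant coding exons to 1 moved it up by 0.67, and counting repeated positions once moved the scale down by 0.23. These shifts are smaller than the distance between the limits for higher and lower, so a change of scale can add or remove a call but cannot turn one. On the first scale a lower call holds where the whole interval lies past 2.98-fold lower, and on the second where it lies past 3.19-fold, while no higher call is lost on either. Counting repeated positions once also limits a gene to 1 tag per base and strand, so that ratios of abundant genes are drawn together. Of 527 listed or named genes considered in exons, 177 then moved by over 1.5 times, and 36 of 385 calls were lost. A difference in level in whole tissue does not tell fewer cells of a type from less RNA per cell.

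**Figure D2:**
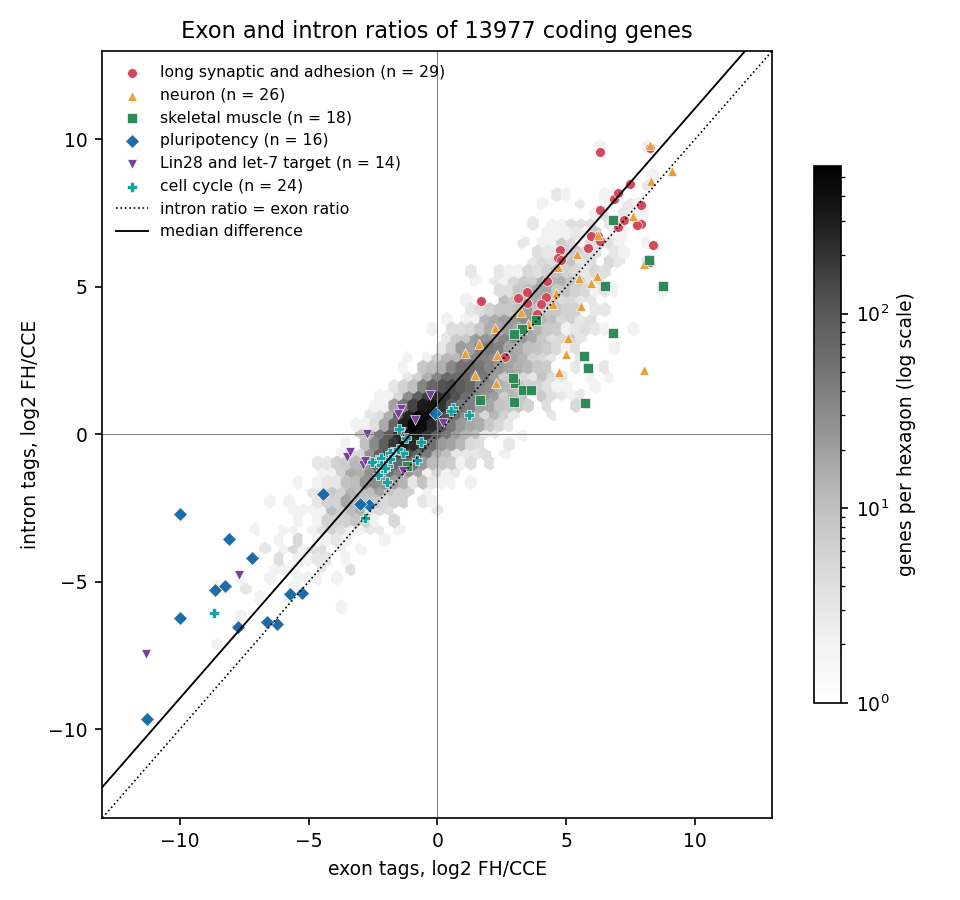
Log2 ratio of FH to CCE in introns (vertical) against exons (horizontal) for 13977 protein-coding genes with at least 10 tags in each, both scaled to unique tags without the mitochondrial chromosome. Grey hexagons show the number of genes, coloured points are members of 6 gene lists, the dotted line marks equal ratios and the solid line the median difference of 1.05. Most genes lie above the dotted line, with medians of -0.47 in exons and 0.55 in introns of these genes, and the corner with higher exons and lower introns holds no called gene.

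The tissue labels were checked with defining markers of the cell types that each source could hold. Of 8 markers of primitive endoderm, the extra-embryonic epithelium that CCE cells approach under retinoic acid, 6 were lower in FH. Their summed exon RPKM was 366.9 in CCE and 64.6 in FH. Sox7 and Afp, the others, were not called. Of 6 neuronal markers 5 were higher in FH, with summed RPKM of 223 in FH and 18.3 in CCE, and all 4 neural progenitor markers were higher, at 123 and 9.33. Markers of other tissues of the head were also present in FH. Summed RPKM in FH and CCE was 110 and 6.67 for skeletal muscle, 221 and 10.6 for cartilage, 82.7 and 0.611 for stratified epithelium, 1568 and 1.07 for red blood cells, 38.1 and 6.24 for endothelium, and 13.5 and 0.198 for macrophages. All 4 markers were higher in each of these lists except endothelium, with 3 of 4. In CCE, 2 of the 4 red blood cell markers and 1 each of the neural progenitor, epithelial and macrophage markers had no tag. The part of these other cell types in the gene differences was not tested.

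Genes of neurons were higher in FH in exons and introns alike and took most of the first ranks. The 8 genes with the largest difference in both were Chl1, Slc17a6, Csmd3, Epha5, Col6a3, Ppfia2, Grin2b and Lrrc7, and RiboMinus libraries of the 2 tissues did not overlap for any of them. Chl1, a cell adhesion molecule of growing axons at chr6:103460870-103699671 of mm9, had 6778 exon tags in FH and 1 in CCE, and 7190 intron tags in FH and 3 in CCE. Its exons were 3863-fold higher (693 to 152600) and its introns 1366-fold higher (467 to 6625), with the exact 95% counting interval in parentheses here and throughout. Slc17a6, the vesicular glutamate transporter VGLUT2 of excitatory neurons, had 1663 exon tags in FH and 0 in CCE, and 2034 intron tags in FH and 0 in CCE. Where a count was 0 it was set to 3 tags for a bound, written as at least, which is not the end of an interval. Slc17a6 exons were at least 316-fold higher and introns at least 386-fold higher. Exons and introns of this gene thus both carried tags in FH, and neither did in CCE. Grin2b, a subunit of the NMDA receptor, had 1995 exon tags in FH and 1 in CCE, with 9711 intron tags in FH and 15 in CCE. Epha5, a receptor of axon guidance, had 2981 exon tags in FH and 2 in CCE, with 14691 intron tags in FH and 18 in CCE. Lrrc7, a protein of the postsynaptic density, had 1772 exon tags in FH and 1 in CCE, with 13301 intron tags in FH and 14 in CCE. With repeated positions counted once, the exon log2 ratio of Chl1 was 10.68 in place of 11.92, and exon ratios of all 8 genes moved toward 1 by over 1.5 times. In these neuronal genes the introns carried more tags than the exons, in Csmd3 8770 against 1615 in FH. Col6a3, which encodes a collagen of connective tissue, was the exception with 20803 exon tags in FH and 21 in CCE and 3368 intron tags in FH and 3 in CCE. These are raw tags over introns of unequal length, 65145 bases in Col6a3 and 1190161 in Csmd3. Per base, exons held more than introns in FH in all 8 genes. Exon and intron RPKM in FH were 37.7 and 1.12 in Col6a3, 18.4 and 0.674 in Chl1, and 2.07 and 0.159 in Csmd3.

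Of 32 genes of the neuron list, 31 were higher in exons, against 16.6% of all genes, with a median log2 ratio of 5.03, and 24 of 26 were higher in introns, against 23.8%, with a median of 4.39. None was lower. RiboMinus libraries of the 2 tissues did not overlap for 31 of the 32. Dcx, a microtubule protein of migrating neurons, had 10582 exon tags in FH and 31 in CCE and was 194-fold higher (137 to 286), and its introns were 168-fold higher (100.2 to 308). Myt1l, a transcription factor of neurons, had 3188 exon tags in FH and 6 in CCE and 26647 intron tags in FH and 17 in CCE. Its introns were 893-fold higher (558 to 1534). Inhibitory neurons were represented by Gad2, which makes the transmitter GABA, with 961 exon tags in FH and 1 in CCE, and excitatory neurons of the cortex by Neurod6, with 1374 exon tags in FH and 0 in CCE. Stmn2, a tubulin-binding protein of neurons, had 1991 exon tags in FH and 545 in CCE, so that CCE was not without it. Its exon ratio was 2.08 (1.89 to 2.29) and was not called, while its introns were 6.73-fold higher (5.79 to 7.87). Mapt, the tau protein of axons, and Elavl3, an RNA-binding protein of neurons, stood apart in the relation of exon to intron. Mapt exons were 33.2-fold higher (28.7 to 38.7) and its introns 9.52-fold higher (8.06 to 11.3), an intron minus exon log2 difference of -1.80. In Elavl3 it was -1.21. The exon log2 ratio was 3.55 in place of 5.05 for Mapt and 4.55 in place of 5.57 for Elavl3 with repeated positions counted once.

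All 29 genes of a list of long synaptic and adhesion genes were higher in FH in exons and also in introns, against 16.6% and 23.8% of all genes, with median log2 ratios of 6.24 and 6.41. RiboMinus libraries did not overlap for 28 of them. Among the 29 were also Sox5 and Rbfox1, which regulate transcription and splicing. Introns gave most of the tags of the listed genes. Nrxn3, a presynaptic adhesion receptor, had 101486 intron tags in FH and 198 in CCE and 3826 exon tags in FH and 17 in CCE, and its introns were 292-fold higher (254 to 338). Ctnna2, a catenin of neurons, had 79975 intron tags in FH and 237 in CCE and 6038 exon tags in FH and 43 in CCE. Nrg3, a ligand of the receptor Erbb4, had 420 exon tags in FH and 0 in CCE but 45557 intron tags in FH and 34 in CCE, and its introns were 764-fold higher (546 to 1103). The receptor Erbb4 had 2707 exon tags in FH and 81 in CCE and was 19.1-fold higher (15.3 to 24.1), with introns 36.6-fold higher (33.3 to 40.3). Intron tags of the list in FH ranged from 6758 in Gria2, a subunit of AMPA receptors, to the 101486 of Nrxn3. Kcnip4, a partner of potassium channels, was the member in which introns went furthest beyond exons, among 18 with enough tags in all 4 counts. Its exons were 3.25-fold higher (2.27 to 4.76) and its introns 22.8-fold higher (20.4 to 25.5), a difference of 2.81 on the log2 scale. Its exon call was lost with repeated positions counted once, at a log2 ratio of 1.33.

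Neural progenitor genes were higher in 17 of 21 in exons and 12 of 15 in introns, against 16.6% and 23.8% of all genes, with medians of 2.50 and 2.38 on the log2 scale and none lower. The exon count fell to 11 with repeated positions counted once, where 12.8% of all genes were higher. With exons and introns each centred on their own median the intron count fell to 8, where 14.9% of all genes were higher. Fabp7, a fatty acid binding protein of radial glia, had 4459 exon tags in FH and 6 in CCE and was 424-fold higher (194 to 1155), a log2 ratio of 8.73 that was 5.90 with repeated positions counted once. Hes5, a target of Notch in progenitors, had 489 exon tags in FH and 0 in CCE. Pax6, a transcription factor of cortex and eye, was 3.58-fold higher (3.09 to 4.15) in exons and 5.17-fold higher (3.78 to 7.23) in introns. Slc1a3, a glutamate transporter of glia, was level at 0.997 (0.946 to 1.05) in exons and 1.02 (0.961 to 1.09) in introns, from 3886 exon tags in FH and 2221 in CCE. In a list of splicing regulators of neurons 11 of 16 genes were higher in exons and 13 of 16 in introns, against the same shares of all genes. The 16 also included the transcriptional repressor Rest and the synaptic gene Dlg4, which are not regulators of splicing. Srrm4, which promotes the inclusion of microexons, had 547 exon tags in FH and 26 in CCE and was 12.0-fold higher (8.09 to 18.5), while its introns were 154-fold higher (96.1 to 265). Khdrbs2, also named Slm1, was 25.4-fold higher (14.1 to 51.3) in exons and 283-fold higher (171 to 506) in introns. Rest and Ptbp1, repressors of neuronal genes and neuronal exons, were the 2 lower members. Rest exons were 3.22-fold lower (3.10 to 3.34) from 4350 exon tags in FH and 7974 in CCE, and its intron ratio was 0.495 (0.444 to 0.551). Ptbp1 exons were 2.23-fold lower (2.08 to 2.41) and its intron ratio was 0.982 (0.864 to 1.12). The exon call of Ptbp1 was lost on the scale of coding exons and with repeated positions counted once, and both with the median ratio of coding exons set to 1. Ptbp2, which takes the place of Ptbp1 in young neurons, was not called, at 1.75 (1.66 to 1.85) in exons and 1.69 (1.63 to 1.76) in introns.

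The genes with the largest lower ratios in exons and introns together included several of early embryo, endoderm and germ line. They were Triml2, Zfp42, Wt1, Gata4, Stra8, Dnmt3l, Lin28a and Lrrn4, and RiboMinus libraries did not overlap for any of the 8. Zfp42, the stem cell marker Rex1 at chr8:44380422-44392363, had 1 exon tag in FH and 1398 in CCE, with 1 intron tag in FH and 462 in CCE. Its exons were 2453-fold lower (439.5 to 96950) and its introns 811-fold lower (145 to 32090). Gata4, a transcription factor of endoderm and heart, had 2 exon tags in FH and 2008 in CCE, with 5 intron tags in FH and 770 in CCE, and was 1762-fold lower (487 to 14560) in exons. Stra8, which retinoic acid induces in germ cells at the onset of meiosis, had 0 exon tags in FH and 876 in CCE, with 2 intron tags in FH and 389 in CCE. It was at least 512-fold lower in exons. Wt1, a factor of kidney, gonad and mesothelium, had 9 exon tags in FH and 2225 in CCE, and its introns gave more, 21 intron tags in FH and 2534 in CCE. Lin28a, an RNA-binding protein of stem cells, had 6 exon tags in FH and 8727 in CCE, which is exon RPKM 0.0382 in FH and 97.4 in CCE. It was 2552-fold lower (1172 to 6956) in exons and 173-fold lower (58.7 to 844) in introns. With repeated positions counted once, the exon log2 ratio was -9.74 in place of -11.32 for Lin28a and -10.06 in place of -11.26 for Zfp42, and those of Dnmt3l and Stra8 also moved toward 0 by over 1.5 times. Each of these genes had at most 15 exon tags in FH, although that library was the deeper one.

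Of 27 genes of yolk sac and primitive endoderm, 20 were lower in exons, against 22.3% of all genes, and 2 were higher, with a median of -2.36. In introns 10 of 25 were lower, against 4.89% of all genes, and 2 were higher, with a median of -1.12. After centring 16 introns were lower, against 9.86% of all genes. Among the 9 genes lower in both were Gata4, Gata6, Foxa2, Hnf4a, Cubn, Krt8, Krt18 and Lama1. Gata6 had 84 exon tags in FH and 2714 in CCE and was 56.7-fold lower (45.6 to 71.3) in exons and 21.6-fold lower (17.6 to 26.8) in introns. Cubn, the receptor cubilin of absorptive epithelium, had 120 exon tags in FH and 22068 in CCE and was 323-fold lower (269.7 to 389), with introns 70.6-fold lower (53.2 to 95.7). Several basement membrane genes were lower in exons with introns not called. Col4a1, a chain of type IV collagen, was 4.16-fold lower (4.08 to 4.24) in exons, and its intron ratio was 0.550 (0.523 to 0.577). Lamc1 and Lamb1, laminin chains, were 4.48-fold lower (4.36 to 4.61) and 4.54-fold lower (4.43 to 4.66) in exons, with intron ratios of 0.809 (0.763 to 0.858) and 0.742 (0.700 to 0.785). Ttr, the thyroid hormone carrier made by visceral endoderm and also by the choroid plexus of the brain, was among the higher members, with 2326 exon tags in FH and 140 in CCE. It was 9.47-fold higher (7.98 to 11.3) in exons and 6.13-fold higher (3.73 to 10.8) in introns. The exon log2 ratio of Ttr was 3.24, and 1.48 with repeated positions counted once. Thbd, thrombomodulin, was 7.42-fold higher (5.77 to 9.68) in exons. RiboMinus libraries did not overlap for 17 genes in the lower direction and for Ttr and Pdgfra in the higher one, but they did for Thbd.

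Most pluripotency genes were lower in FH. Of 21 genes 19 were lower in FH in exons and 15 of 16 in introns, with medians of -6.59 and -5.21, where all genes gave 22.3% and 4.89%. RiboMinus libraries did not overlap for 12 of the 21, all lower in FH. FH was not without tags of the list, with 2551 exon tags of Sox2, 652 of Tbx3, 413 of Klf4 and 128 of Klf2. Klf2 was 8.05-fold lower (6.64 to 9.82) in Ribo-Zero exons, but its ratio in the summed RiboMinus tags was 1.71 (1.32 to 2.21). Pou5f1, also named Oct4, had 0 exon tags in FH and 1733 in CCE, and Nanog had 0 exon tags in FH and 685 in CCE. Pou5f1 was at least 1014-fold lower and Nanog at least 401-fold lower. Pou5f1 has processed copies elsewhere in the genome, and tags that fit more than 1 place had been left out. Sox2, shared by stem cells and neural progenitors, and Klf4 were not called, at 0.483 (0.458 to 0.509) and 0.949 (0.809 to 1.11). Their ratios in the summed RiboMinus tags were 1.89 (1.67 to 2.14) and 2.58 (2.19 to 3.05). Sall4 was 147-fold lower (110.3 to 200.3) in exons and 18.3-fold lower (12.2 to 28.5) in introns. In the retinoic acid pathway, exons of 3 of 24 genes were higher and of 10 lower, against 16.6% and 22.3% of all genes, and introns of 4 of 22 were higher and of 3 lower, against 23.8% and 4.89%. With tags in coding exons as the scale, the exon counts were 4 and 7 and the intron counts 6 and 3. All genes there gave 22.7% and 10.4% in exons and 41.3% and 2.9% in introns. On the scale of the median gene the counts were 4 and 6, and 8 and 3, where all genes gave 24.1% and 9.07%, and 45.3% and 2.66%. Among enzymes and targets, Cyp26a1, which breaks retinoic acid down and is induced by it, was 17-fold lower (13.4 to 21.8) with 75 exon tags in FH and 725 in CCE. Hoxb1 and Cdx1 had no exon tag in FH and 109 and 99 in CCE. Cyp26b1 was 2.71-fold higher (2.38 to 3.10) in exons and 2.67-fold higher (2.21 to 3.25) in introns, and Aldh1a3, which makes retinoic acid in the eye and nose, had 585 exon tags in FH and 18 in CCE and was 18.5-fold higher (11.6 to 31.5). Both calls of Cyp26b1 were lost with repeated positions counted once. The receptors varied. Rara was 2.29-fold lower (2.11 to 2.47) in exons with an intron ratio of 1.02 (0.928 to 1.13). Rarg was not called in exons at 0.600 (0.558 to 0.644) and was 2.31-fold higher (2.04 to 2.61) in introns. The exon call of Rara was lost on the scale of coding exons, and the intron call of Rarg with repeated positions counted once. Rxrg had 231 exon tags in FH and 0 in CCE and was at least 43.9-fold higher.

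Of 21 skeletal muscle genes 20 were higher in exons and 12 of 19 in introns, against 16.6% and 23.8% of all genes, with medians of 3.82 and 2.25 on the log2 scale. In 9 genes with enough tags the intron minus exon difference had a median of -1.28, where genes with higher exons had 0.48 and all genes 1.05. The intron count was 8 with repeated positions counted once or after centring, where 17.4% and 14.9% of all genes were higher. It was 17 on the scale of coding exons, where 41.3% were. Ttn, the giant elastic protein of the sarcomere, had 88000 exon tags in FH and 551 in CCE and was 91.0-fold higher (83.7 to 99.2), while its introns with 2596 intron tags in FH and 45 in CCE were 32.9-fold higher (24.5 to 45.2). Neb, the ruler of the thin filament, was 52.3-fold higher (41.0 to 67.8) in exons and 6.22-fold higher (5.07 to 7.71) in introns, and its exon log2 ratio fell from 5.71 to 5.03 with repeated positions counted once. Myh3, the embryonic myosin heavy chain, had 11953 exon tags in FH and 23 in CCE and 639 intron tags in FH and 6 in CCE. Myog, a transcription factor that starts muscle differentiation, had 1399 exon tags in FH and 7 in CCE. Des, an intermediate filament of muscle, was the lower member, 2.27-fold lower (2.11 to 2.44) from 1336 exon tags in FH and 1729 in CCE, a call lost on the scale of coding exons and after centring.

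In cartilage and bone 18 of 21 genes were higher in exons and 15 of 20 in introns, against 16.6% and 23.8% of all genes, with medians of 3.51 and 3.63, and the intron minus exon difference had a median of -0.20 over 14 genes, where genes with higher exons had 0.48 and all genes 1.05. Col2a1, the main collagen of cartilage, had 37201 exon tags in FH and 1491 in CCE and was 14.2-fold higher (13.5 to 15) in exons and 5.13-fold higher (4.60 to 5.74) in introns. Its exon log2 ratio was 3.83, and 1.21 with repeated positions counted once. Col11a2, its partner in the fibril, was 178-fold higher (117 to 284) in exons and 20.0-fold higher (14.1 to 29.4) in introns, and its exon log2 ratio fell from 7.48 to 6.07 with repeated positions counted once. Ibsp, a matrix protein of bone, had 5362 exon tags in FH and 3 in CCE. The factor Runx2 of bone cells was 23.3-fold higher (13.2 to 45.4) in exons and 297-fold higher (53.1 to 11750) in introns, from 491 exon tags in FH and 12 in CCE and 521 intron tags in FH and 1 in CCE. The CCE counts are small. Alpl, alkaline phosphatase, which stem cells also make, was 2.71-fold lower (2.53 to 2.91) in exons, a call lost on the scale of coding exons and after centring.

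Genes of other tissues of the head were also higher in FH, with smooth muscle as the exception, where all genes were higher in 16.6% in exons and 23.8% in introns. Stratified epithelium had 12 of 17 genes higher in exons and 10 of 17 in introns. Krt5, a keratin of basal cells, had 3448 exon tags in FH and 0 in CCE and was at least 655-fold higher. Krt10, a keratin of upper layers, was 6.77-fold higher (5.38 to 8.63) in exons, and its intron ratio was 0.745 (0.562 to 0.990). Lens and retina had 17 of 20 higher in exons and 10 of 15 in introns. The intron count was 5 with repeated positions counted once or after centring, where 17.4% and 14.9% of all genes were higher. Cryaa, an alpha crystallin, had 1815 exon tags in FH and 0 in CCE. Red blood cell genes were higher in 11 of 14 in exons and in 1 of 6 in introns. Hbb-y, an embryonic globin, had 37166 exon tags in FH and 1 in CCE and 3 intron tags in FH and 0 in CCE, and Hbb-b1 had 12936 exon tags in FH and 0 in CCE. The exon log2 ratios of Hbb-y and Hbb-b1 were 8.77 in place of 14.37 and 5.50 in place of 11.26 with repeated positions counted once. Adult globin genes share sequence, so tags could have been split or lost between copies. Globin was thus seen almost without introns, whereas Tal1, a transcription factor of the same lineage, had 673 exon tags in FH and 24 in CCE and 200 intron tags in FH and 9 in CCE. Endothelium had 7 of 10 higher in exons, microglia and macrophages 9 of 10, and neural crest with peripheral nerve 8 of 13, and none was lower. Cdh5, the cadherin of vessels, was 31.8-fold higher (24.3 to 42.6), Cx3cr1 of microglia had 462 exon tags in FH and 0 in CCE, and Sox10 of the neural crest was 10.4-fold higher (6.70 to 17). Contractile genes of smooth muscle were lower in exons in 5 of 12, against 22.3% of all genes, and higher in 1. Tagln was 16.1-fold lower (14.4 to 17.9) in exons and 3.07-fold lower (2.21 to 4.29) in introns, where the intron call was lost on the scale of coding exons, and Mylk was 9.55-fold higher (7.57 to 12.2) in exons.

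**Figure D3:**
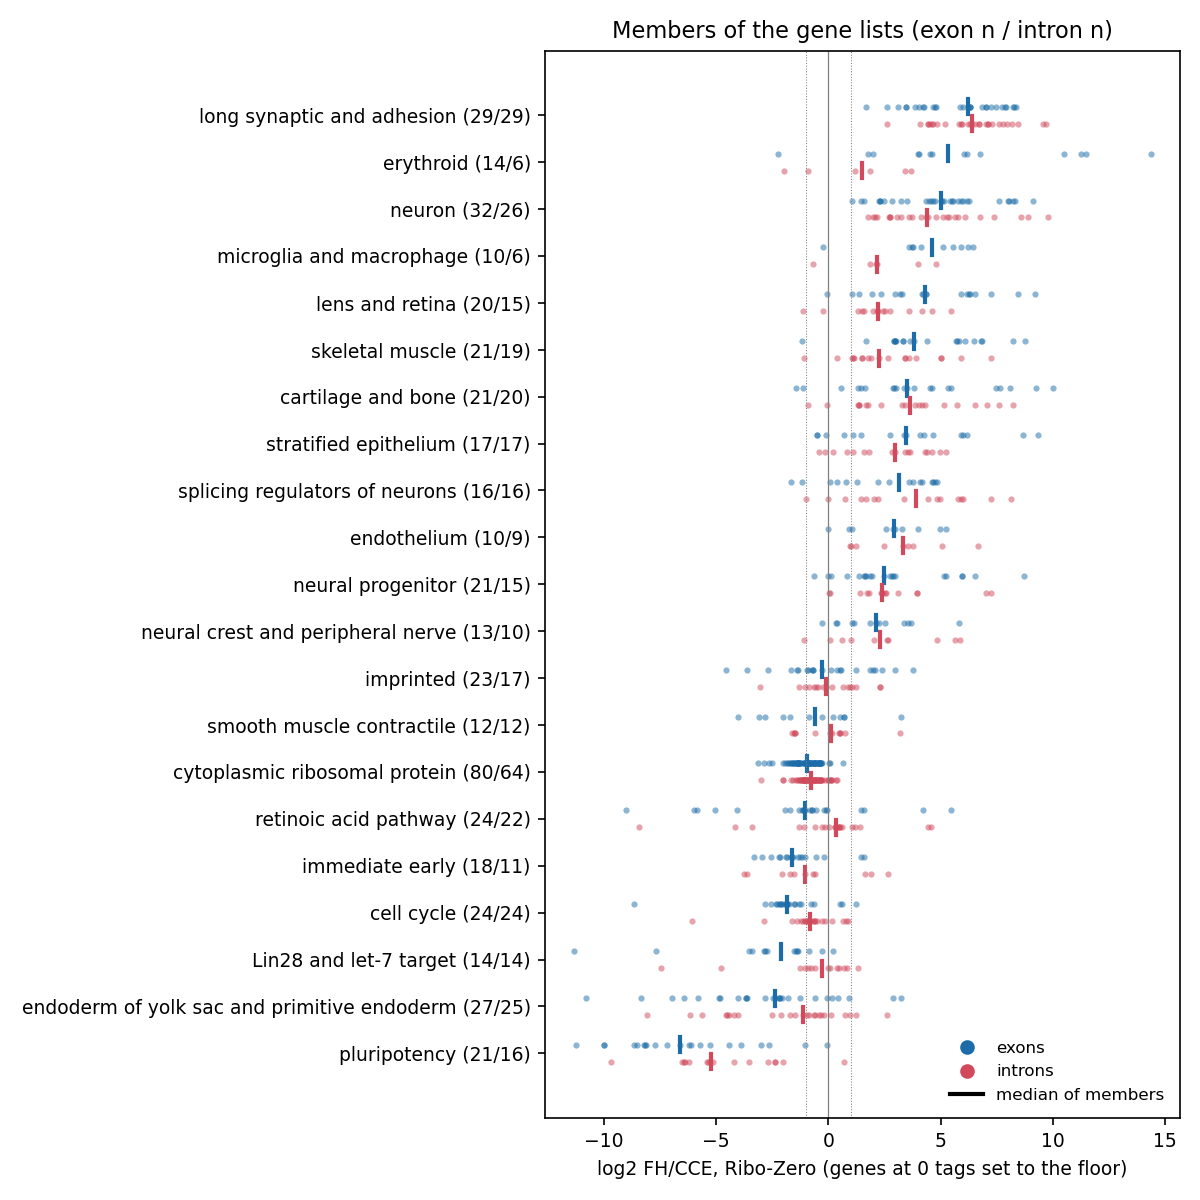
Log2 ratio of FH to CCE in exons (blue) and introns (red) for each member of the gene lists, with the number of members in parentheses, medians as bars and 2-fold limits as dotted lines. Counts of 0 were set to 3 tags. Neuronal lists lie far above 0 in both, up to 6.24 and 6.41 for long synaptic genes, the pluripotency medians lie at -6.59 and -5.21, and the median of skeletal muscle is higher in exons (3.82) than in introns (2.25).

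Of 24 cell cycle genes 19 were lower and 1 higher in exons, with a median of -1.85, and 5 of 24 were lower in introns, with a median of -0.83. All genes gave 22.3% lower in exons and 4.89% in introns. On the scale of tags in coding exons 15 were lower in exons and 2 in introns, against 10.4% and 2.9% of all genes. With exons and introns each centred on their own median, 15 of 24 were lower in exons and 15 of 24 in introns, against 12.2% and 9.86% of all genes. The median intron minus exon difference was 0.92 over 23 of them, where genes with lower exons had 1.36 and all genes 1.05. Mcm5, a subunit of the replicative helicase, had 3789 exon tags in FH and 9735 in CCE and was 4.51-fold lower (4.34 to 4.68), and its intron ratio was 0.578 (0.524 to 0.638). Ccnb2, a mitotic cyclin, was 5.81-fold lower (5.36 to 6.31) in exons, with an intron ratio of 0.520 (0.448 to 0.604). The inhibitors were divided. Cdkn2a, which encodes p16 and p19, had 0 exon tags in FH and 696 in CCE and was at least 407-fold lower. Cdkn1a, which encodes p21, was 7.03-fold lower (6.38 to 7.76) in exons and 7.18-fold lower (5.81 to 8.94) in introns. Cdkn1c, which encodes p57 and is imprinted, was 2.35-fold higher (2.29 to 2.42) in exons, but its log2 ratio of 1.24 was -0.44 with repeated positions counted once. Immediate early genes, which respond to stimuli within minutes, were lower in 12 of 18 in exons, against 22.3% of all genes, and in 3 of 11 in introns, against 4.89%. The 12 fell to 6 on the scale of coding exons and to 5 on that of the median gene, where 10.4% and 9.07% of all genes were lower. Ier2 was 9.78-fold lower (8.80 to 10.9), and Atf3 was 7.78-fold lower (5.95 to 10.3) in exons and 13.5-fold lower (9.21 to 20.5) in introns. Ribosomal protein genes were lower in 22 of 80 in exons, with a median of -0.93, against 22.3% of all genes. The number fell to 7 on the scale of coding exons, where 10.4% of all genes were lower, and to 4 on that of the median gene, where 9.07% were. Introns of the ribosomal protein genes were lower in 8 of 64, against 4.89% of all genes. On the scale of coding exons and on that of the median gene they were lower in 2 of 64, where 2.9% and 2.66% of all genes were. After centring they were lower in 36 of the 64 ribosomal protein genes, against 9.86% of all genes. These genes have many processed copies, so their tags are uncertain.

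Imprinted genes, of which 1 parental copy is silent, were higher in 7 of 23 and lower in 6 in exons, against 16.6% and 22.3% of all genes. The counts were 2 and 7 with repeated positions counted once, where all genes gave 12.8% and 27.4%. On the scale of the median gene they were 9 and 3, where all genes gave 24.1% and 9.07%. Introns were higher in 3 of 17 and lower in 2, against 23.8% and 4.89% of all genes. H19, a non-coding RNA, and Igf2, a growth factor, are neighbours. H19 had 159929 exon tags in FH and 11790 in CCE and was 7.73-fold higher (7.59 to 7.88), while Igf2 had 36451 exon tags in FH and 54806 in CCE and was 2.64-fold lower (2.60 to 2.67) in exons with an intron ratio of 0.842 (0.738 to 0.961). Peg10, derived from a retrotransposon, was 12.2-fold lower (11.9 to 12.5) in exons and 8.20-fold lower (7.02 to 9.63) in introns, from 7855 exon tags in FH and 54726 in CCE. Peg3 was 3.21-fold lower (3.17 to 3.25) and 2.50-fold lower (2.40 to 2.62). The exon calls of Igf2 and Peg3 were lost on the scale of the median gene. Nnat, a small membrane protein of neurons, had 30706 exon tags in FH and 1289 in CCE and was 13.6-fold higher (12.8 to 14.4), and Mest was 3.96-fold higher (3.74 to 4.2) in exons and 4.90-fold higher (4.38 to 5.48) in introns. Counting repeated positions once, the exon log2 ratio of H19 was -0.44 in place of 2.95, that of Nnat 0.63 in place of 3.76 and that of Mest 0.39 in place of 1.99, and none of the 3 was called. Meg3 was not called, at 1.46 (1.41 to 1.51) in exons and 0.633 (0.610 to 0.657) in introns.

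In other genes exons and introns parted. With introns shifted upward against exons over all genes by 1.05 on the log2 scale, each class is given with its share of the 13977 genes. Flat means that the whole interval lay within 1.5-fold. Exons were lower with flat introns in 1047 genes (7.49%) and higher with flat introns in 6 (0.0429%). Introns were higher with flat exons in 596 (4.26%) and lower with flat exons in 2 (0.0143%). Both were flat in 370 genes (2.65%). These counts depend on the scale. Against 1047 and 6, there were 389 and 12 on the scale of coding exons, 308 and 10 with the median ratio set to 1, and 91 and 48 with exons and introns each centred on their own median. Against 596 and 2, there were 1491 and 0, 1658 and 2, and 30 and 53. With repeated positions counted once they were 1189 and 2, and 366 and 2. Of the 10 genes with lower exons and higher introns, Fbxl12, Klf8, Erp44, Uso1 and Frmd4b ranked first by the interval end nearest to a ratio of 1. This is not a rank by the distance between exons and introns. Fbxl12, an adaptor of a ubiquitin ligase, had 325 exon tags in FH and 563 in CCE and 625 intron tags in FH and 98 in CCE. Its exons were 3.04-fold lower (2.65 to 3.50) and its introns 3.63-fold higher (2.93 to 4.54). Klf8, a Krueppel-like transcription factor, had 361 exon tags in FH and 620 in CCE and 1164 intron tags in FH and 112 in CCE, with exons 3.01-fold lower (2.64 to 3.44) and introns 5.92-fold higher (4.88 to 7.26). Uso1, a tether of vesicles at the Golgi, was 2.65-fold lower (2.46 to 2.86) in exons and 2.31-fold higher (2.10 to 2.55) in introns. For none of these 5 did the RiboMinus libraries of the 2 tissues separate in exons. The intron calls of Erp44, Uso1 and Frmd4b were lost with repeated positions counted once, and the exon calls of all 5 with the median ratio of coding exons set to 1. Dlc1, another of the 10, did separate in RiboMinus exons. In the summed RiboMinus tags its exons were 2.24-fold lower (2.025 to 2.48) and its introns 3.96-fold higher (3.57 to 4.40). The class held 5 genes with repeated positions counted once, 4 with the median ratio of coding exons set to 1, and none at a limit of 4-fold.

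Among the genes with lower exons and flat introns, the exon difference was largest in Mttp, Galnt7, Arid3a, Impact and Stard4. With the median ratio of coding exons set to 1, their intron log2 ratios were 0.50, 0.52, 0.67, 0.57 and 0.51 in this order. The intron intervals of all of them then reached past 1.5-fold, so these introns were flat on the main scale but not on that one. Mttp, which loads lipid onto lipoproteins in yolk sac and liver, had 227 exon tags in FH and 1588 in CCE and 224 intron tags in FH and 144 in CCE. It was 12.3-fold lower (10.7 to 14.2) in exons, and its intron ratio was 0.887 (0.716 to 1.10). Galnt7, an enzyme of O-glycosylation, was 8.34-fold lower (7.71 to 9.04) with an intron ratio of 0.902 (0.842 to 0.967). Stard4, a carrier of cholesterol, was 6.50-fold lower (6.01 to 7.03) with 0.893 (0.763 to 1.05), and Impact, an imprinted regulator of translation, 6.38-fold lower (6.02 to 6.78) with 0.930 (0.839 to 1.03). In the summed RiboMinus tags Impact introns were 2.50-fold lower (2.05 to 3.07) and were thus not flat. The intron intervals of Mttp, 0.789 (0.414 to 1.46), and Stard4, 0.917 (0.633 to 1.32), also reached past 1.5-fold there. RiboMinus libraries did not overlap in exons for the genes of this class named here except Mttp, whose RiboMinus exons were 2.39-fold lower (1.44 to 4.11). In the same class upside down, with higher exons and flat introns, were Fgf2, Fbxl13, Klc1, Stk32c and Hoxd3. Klc1, a light chain of the motor kinesin, had 7075 exon tags in FH and 1608 in CCE and was 2.51-fold higher (2.38 to 2.65), with an intron ratio of 1.30 (1.23 to 1.39). With repeated positions counted once, its exon log2 ratio was 0.14 in place of 1.33. Hoxd3 was 3.23-fold higher (2.22 to 4.83) with 0.798 (0.698 to 0.913). Fbxl13 rests on 19 exon tags in FH and 0 in CCE. In the summed RiboMinus tags introns were 2.88-fold higher (1.93 to 4.37) for Fgf2 and 4.14-fold higher (2.66 to 6.64) for Stk32c. The RiboMinus intron ratio was 0.529 (0.351 to 0.782) for Fbxl13, 1.54 (1.36 to 1.74) for Klc1 and 0.820 (0.633 to 1.06) for Hoxd3. None of these introns were thus flat there. With the intergenic level of each library taken off, the intron log2 ratio of Fbxl13 was -1.13 in place of -0.16. The exon calls of Fbxl13, Stk32c and Hoxd3, like that of Klc1, were lost with repeated positions counted once. RiboMinus exons of the tissues overlapped for Fgf2 and Fbxl13 and did not for the other 3.

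Introns were higher with flat exons above all in Zfp800, Ubtd2, Tmem109, Phf6 and Hs3st1. With the median ratio of coding exons set to 1, the exon log2 ratio was 0.96 for Ubtd2, 0.77 for Tmem109, 1.12 for Phf6 and 0.82 for Hs3st1, past the limit of 1.5-fold, so these 4 were flat on the main scale but not on that one. Zfp800, a zinc finger protein, had 729 exon tags in FH and 525 in CCE, a ratio of 0.791 (0.706 to 0.887), and 589 intron tags in FH and 32 in CCE, a ratio of 10.5 (7.35 to 15.5). With repeated positions counted once, the exon log2 ratio of Zfp800 was -0.66 in place of -0.34, past the limit of 1.5-fold, so its exons were not flat there. Ubtd2 had 5634 intron tags in FH and 530 in CCE and was 6.06-fold higher (5.54 to 6.63), with an exon ratio of 1.22 (1.09 to 1.37), a log2 ratio of 0.29 that was -0.35 with repeated positions counted once. Phf6, a chromatin protein on the X chromosome, was 5.72-fold higher (5.00 to 6.57) in introns with an exon ratio of 1.36 (1.27 to 1.46). For none of these 5 did the RiboMinus libraries separate in exons. Afp, alpha-fetoprotein of yolk sac and liver, was the named gene of the opposite class. It had 195 exon tags in FH and 100 in CCE but 7 intron tags in FH and 23 in CCE, and its introns were 5.76-fold lower (2.40 to 15.9).

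**Figure D4:**
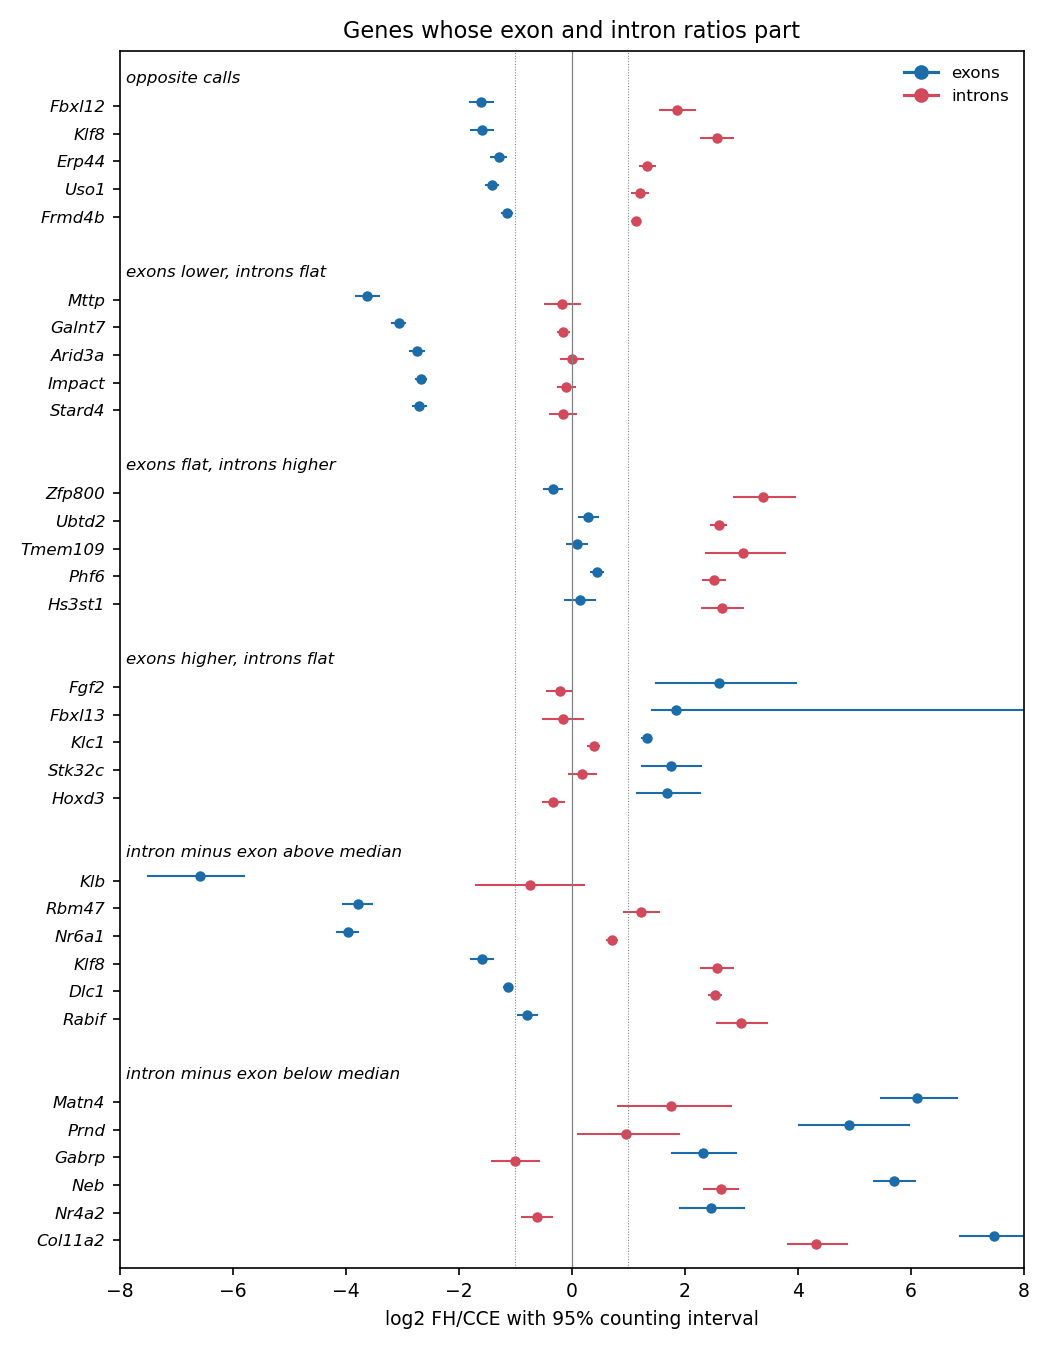
Exon and intron ratios of FH to CCE on a log2 axis for the named genes whose exons and introns parted, with exons in blue, introns in red, exact 95% counting intervals as bars, 2-fold limits as dotted lines, and bars cut at the ends of the axis. In Fbxl12 and Klf8 the exon intervals lie below and the intron intervals above the limits of 2-fold, in Mttp and Arid3a the exons lie below with introns near 0, and in Zfp800 the introns lie above with exons near 0.

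The list of Lin28 and let-7 target genes stood out in the intron minus exon difference more than in these classes. Its median was 1.93 over 13 genes, where genes with lower exons had 1.36 and all genes 1.05. In 6 of the 13 the whole interval lay more than 2-fold above the median of all genes, against 1.39% of all genes. This share was not taken over genes with lower exons alone. Of the members named below, on the main scale Arid3a had lower exons with flat introns and Dicer1 had flat exons with higher introns. The other named members were in none of these classes. let-7 is a microRNA that accumulates as cells differentiate and pairs with sites in the 3′ untranslated region (3′UTR) of mRNAs, which shortens their life. Lin28 proteins bind let-7 precursors and hinder their maturation, and the Lin28 mRNAs are themselves let-7 targets. Of 14 genes of this list 10 were lower in exons and none higher, with a median of -2.13, while introns were lower in 3 and higher in 1, with a median of -0.30. All genes gave 22.3% lower in exons, and 4.89% lower and 23.8% higher in introns. On the scale of coding exons, which adds 0.57 to each log2 ratio, 7 exons and 2 introns were lower and 3 introns higher. The intron median then lay above 0. All genes there gave 10.4% lower in exons, and 2.9% lower and 41.3% higher in introns. With exons and introns each centred on their own median, 7 exons and 6 introns were lower and none higher. All genes then gave 12.2% and 9.86% lower. With repeated positions counted once 5 introns were lower and none higher, where all genes gave 6.3% and 17.4%. Lin28b had 489 exon tags in FH and 2903 in CCE and 1392 intron tags in FH and 1210 in CCE, so that exons were 10.4-fold lower (9.46 to 11.5) while the intron ratio was 0.656 (0.607 to 0.709). Arid3a, a DNA-binding protein, had 709 exon tags in FH and 2697 in CCE and 611 intron tags in FH and 348 in CCE. Its exons were 6.67-fold lower (6.14 to 7.26) and its intron ratio was 1.00 (0.876 to 1.15). Arid3b was 11.5-fold lower (10.1 to 13.2) in exons with 0.582 (0.381 to 0.889) in introns. Hmga2, a chromatin protein of growing tissue, was 7.37-fold lower (6.49 to 8.40) with 0.489 (0.466 to 0.513). Igf2bp1, which binds mRNAs, was 7.09-fold lower (6.86 to 7.33) with 0.538 (0.500 to 0.578). Igf2bp2 and Igf2bp3 were 2.86-fold lower (2.72 to 3.00) and 2.68-fold lower (2.52 to 2.86) in exons, and their intron ratios were 1.60 (1.52 to 1.70) and 1.80 (1.71 to 1.89). Both exon calls were lost on the scale of coding exons. Trim71, a ubiquitin ligase, was lower in both, 205-fold lower (155 to 279) in exons and 27.3-fold lower (20.6 to 36.7) in introns. Lin28a, above, was also lower in both. Dicer1, which cuts microRNA precursors, was not called in exons at 0.812 (0.777 to 0.849) and was 2.50-fold higher (2.33 to 2.68) in introns, a call lost with repeated positions counted once.

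The mature let-7a sequence of RefSeq is shown with its seed (bases 2 to 8) in capitals, since the site searched for is its complement followed by A.
mmu-let-7a-5p: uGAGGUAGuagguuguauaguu
The 8-base site, in capitals, stands in the 3′UTR of 7 genes in which the whole 95% interval of the intron minus exon difference lay more than 2-fold above the median of all genes. The first was chosen after its values were seen, and the others are members of the list. The list was drawn up to hold targets of let-7, so a site in its members was likely from the start. Members with the site but without such a difference are not shown.
Nr6a1: gacaaagacaaCTACCTCAatggaaacagg
Igf2bp3: tttttactcaaCTACCTCAggtattcagta
Arid3b: ctcaccaagtcCTACCTCAtcccggggtac
Trim71: ttgcctaagtcCTACCTCAgcttaaatttt
Lin28b: gggcgggaagtCTACCTCAtgcaagcacag
Arid3a: caagtttctttCTACCTCAggtcttttgat
Igf2bp2: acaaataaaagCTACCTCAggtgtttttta
These lines read 5′ to 3′ along the transcript, on the minus strand of mm9 except for Arid3a. The Nr6a1 stretch is chr2:38582958-38582987 and is 1 of 3 sites in its 3′UTR, Trim71 has 2 sites with chr9:114421579-114421608 shown, and the others have 1 each. Igf2bp3 lies at chr6:49036775-49036804, Arid3b at chr9:57640360-57640389, Lin28b at chr10:45100817-45100846, Arid3a at chr10:79416644-79416673 and Igf2bp2 at chr16:22059535-22059564.

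Nr6a1, an orphan nuclear receptor of early embryo and germ cells, is no member of the list. It had 275 exon tags in FH and 2451 in CCE and 3751 intron tags in FH and 1307 in CCE, so that exons were 15.6-fold lower (13.8 to 17.8) and the intron ratio was 1.64 (1.53 to 1.74). The letters of the site were then searched over all annotated 3′UTRs, on the transcribed strand, a choice made after the values of the list were seen. The site CTACCTCA was found in 3.01% of 20007 3′UTRs and in 454 (3.90%) of the 11638 with an intron minus exon difference. The median difference was 1.11 with the site and 1.04 without it. A difference whose whole interval lay more than 2-fold above the median of all genes was found in 21 of the 454 genes (4.63%) and in 140 of 11184 without the site (1.25%), where all genes gave 163 (1.39%). The 7 genes shown are among the 21 and prompted the search. Without the list and Nr6a1, the counts were 14 of 445 genes with the site (3.15%) and 140 of 11179 without it (1.25%). In 3′UTRs of at least 1500 bases the shares with the 7 genes were 4.86% and 0.976%, and in shorter ones 4.00% and 1.45%. The sites of 2 other microRNAs gave 2.35% for miR-9, which is abundant in brain, and 0.760% for miR-302b, which is abundant in embryonic stem cells. These are shares of genes, without a test, and a match of letters is not a site in use.

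The other 2 microRNAs, again with the seed in capitals, were searched as ACCAAAGA and AGCACTTA.
mmu-miR-9-5p: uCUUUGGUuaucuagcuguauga
mmu-miR-302b-3p: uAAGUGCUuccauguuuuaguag

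Across all genes, the whole 95% interval of the intron minus exon difference lay more than 2-fold above the median in 163 genes (1.39%) and more than 2-fold below it in 358 (3.05%). Of those with at least 10 tags in each RiboMinus count, 119 of 127 and 231 of 240 lay on the same side of the RiboMinus median. Klb, a co-receptor for fibroblast growth factors, ranked first above the median. It had 13 exon tags in FH and 714 in CCE but 21 intron tags in FH and 20 in CCE. Rbm47, an RNA-binding protein of epithelium, had 145 exon tags in FH and 1141 in CCE and 440 intron tags in FH and 107 in CCE, a difference of 5.02. Dlc1, a regulator of small GTPases, was 2.19-fold lower (2.08 to 2.30) in exons and 5.79-fold higher (5.38 to 6.24) in introns, and the exon call was lost on the scale of coding exons. Below the median stood Matn4, a matrix protein of cartilage, with 2418 exon tags in FH and 20 in CCE and 65 intron tags in FH and 11 in CCE, a difference of -4.36. Its exon log2 ratio fell from 6.11 to 5.01 with repeated positions counted once. Prnd, a relative of the prion protein, had 526 exon tags in FH and 10 in CCE and 51 intron tags in FH and 15 in CCE. Nr4a2, a nuclear receptor of dopamine neurons, was 5.51-fold higher (3.78 to 8.31) in exons, and its intron ratio was 0.649 (0.540 to 0.781). The difference moved with the length of the introns. Its median was 0.70 for genes with under 5 kb of introns, 0.92 from 5 to 20 kb, 1.12 from 20 to 50 kb, 1.24 from 50 to 100 kb and 1.26 over 100 kb. In 1708 genes with over 100 kb of introns the median log2 ratio was 0.17 in exons and 1.40 in introns. It also moved with the exon ratio, which is a part of it, from a median of 1.36 where exons were lower to 0.48 where they were higher.

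On the scale of all tags, genes of low abundance were more often higher than lower in FH, and abundant genes were more often lower in exons. In 3354 genes the exon RPKM was under 1 in both libraries, and the median gene had 46 exon tags in the 2 libraries together. Exons were higher in 795 (23.7%) and lower in 348 (10.4%), with a median log2 ratio of 0.60. Introns of 2368 of these genes were higher in 695 (29.3%) and lower in 139 (5.87%), with a median of 0.97. Where the higher RPKM was from 1 to under 3, exons of 2859 genes were higher in 812 (28.4%) and lower in 372 (13%), and introns of 2420 of them were higher in 874 (36.1%) and lower in 115 (4.75%). Where it was 3 or more, exons of 10051 genes were higher in 1087 (10.8%) and lower in 2900 (28.9%), while introns of 9189 of them were higher in 1828 (19.9%) and lower in 394 (4.29%). For 66.2% of the 2694 genes with higher exons and 42.2% of the 3620 with lower exons, the RiboMinus libraries of the tissues also did not overlap, where 14% of all genes considered did so in each direction. For low-abundance genes the shares were 36.4% and 9.2%. The summed RiboMinus tags had the same direction in 95.3% of the low-abundance genes with higher exons and in 64.9% of those with lower exons, and held no tag in 1.01% and 6.61%. A RiboMinus count of 0 was set to 3 tags for this direction. Genes without a tag thus counted as higher in FH, and genes with a few tags could be given the wrong direction. The 95.3% and 64.9% can therefore not be set against each other. The FH library was the deeper and held more intergenic tags per base, and the part of either in these counts was not tested.

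The low-abundance genes with the largest higher exons were Sntg1, Pcdh15, Sla, Vwc2l, Gpr158 and Il1rapl1. Sntg1, a syntrophin of neurons, had 375 exon tags in FH and 0 in CCE, an RPKM of 0.889 in FH, and was at least 71.2-fold higher. Its introns had 4070 intron tags in FH and 141 in CCE. Pcdh15, a protocadherin of hair cells and retina, had 621 exon tags in FH and 2 in CCE and 8096 intron tags in FH and 13 in CCE. It was 177-fold higher (48.8 to 1464) in exons and 355-fold higher (207 to 667) in introns. Vwc2l had 238 exon tags in FH and 0 in CCE and 793 intron tags in FH and 1 in CCE, and Gpr158, an orphan receptor of brain, had 237 exon tags in FH and 0 in CCE and 1468 intron tags in FH and 4 in CCE. In Pcdh15, Vwc2l and Gpr158 introns thus carried more tags than exons in FH and at most 13 in CCE. Sla has no intron bases of its own to count. Il1rapl1, a synaptic adhesion protein, had 351 exon tags in FH and 1 in CCE but 16977 intron tags in FH and 6003 in CCE, and 35.9% of its intron tags lay in a single window of 1 kb. With repeated positions counted once, its intron log2 ratio was 6.91 in place of 0.69.

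The low-abundance genes with the largest lower exons were Nlrp12, Pramel1, Bst1, Rfx6, Hoxd13 and Rhox9, and all 6 had no exon tag in FH. Nlrp12, an inflammasome protein of myeloid cells, had 75 exon tags in CCE and was at least 43.9-fold lower, and 41.5% of its intron tags lay in 1 window of 1 kb. Rfx6, a transcription factor of gut endoderm and pancreas, had 0 exon tags in FH and 58 in CCE and 0 intron tags in FH and 45 in CCE. It was at least 33.9-fold lower in exons and at least 26.3-fold lower in introns. Hoxd13, the last gene of its Hox cluster, had 0 exon tags in FH and 42 in CCE and was at least 24.6-fold lower. For Rfx6 and Hoxd13 the RiboMinus libraries also separated, and for the other 4 they did not.

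**Figure D5:**
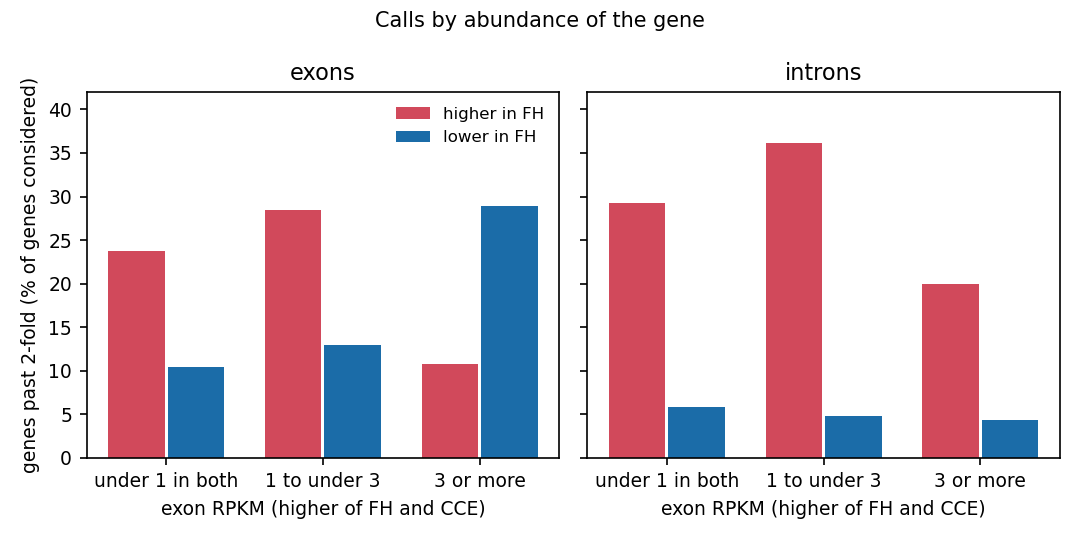
Percent of protein-coding genes called higher or lower in FH in exons and in introns, by the higher exon RPKM of the 2 libraries (under 1, 1 to under 3, at least 3). Red bars are genes higher and blue bars genes lower in FH, in percent of the genes considered. In exons the share of lower genes grows from 10.4% under RPKM 1 to 28.9% at RPKM 3 or more, while that of higher genes is 23.7%, 28.4% and 10.8%.

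Of 3845 non-coding genes annotated as lincRNA or processed transcript, 1833 were considered, and other non-coding types were left out. Exons were higher in FH in 295 (16.1%) and lower in 131 (7.15%), against 16.6% and 22.3% of protein-coding genes. On the scale of coding exons the counts were 488 and 74, where protein-coding genes gave 22.7% and 10.4%. With repeated positions counted once they were 198 and 145 of 1782, where protein-coding genes gave 12.8% and 27.4%. Most of these non-coding genes have clone names and are not described. Miat, also named Gomafu, a nuclear RNA of neurons, had 14442 exon tags in FH and 31 in CCE and was 266-fold higher (187 to 391) in exons and 135-fold higher (65.5 to 337) in introns. Its exon log2 ratio was 8.05, and 6.68 with repeated positions counted once. Rmst, a long RNA of midbrain and neural progenitors, had 1732 exon tags in FH and 26 in CCE and 12424 intron tags in FH and 61 in CCE. Its exons were 38.0-fold higher (25.8 to 58.3) and its introns 116-fold higher (90.3 to 152), and its exon log2 ratio of 5.25 was 4.21 with repeated positions counted once. Dlx6os1, also named Evf2, which lies in the region of the Dlx5 and Dlx6 genes of inhibitory neurons, had 2102 exon tags in FH and 3 in CCE. Xist, the RNA that coats the inactive X chromosome of female cells, had 14797 exon tags in FH and 134 in CCE, which is exon RPKM 20.7 in FH and 0.330 in CCE, and was 62.9-fold higher (53.1 to 75.2). With repeated positions counted once, its exon log2 ratio was 4.86 in place of 5.98. Tsix lies antisense to it, with 3 exon tags in FH and 60 in CCE, and was 35.1-fold lower (11.4 to 175). Without strand, tags of Xist and Tsix in shared bases cannot be told apart, and only bases that are exon of a single gene were counted. After Tsix, the next of 13 genes with lower exons and a name other than a clone name were Tdrd5, Drr1 and Spcs3. Drr1 had 1 exon tag in FH and 16 in CCE, and Spcs3 had 2796 exon tags in FH and 5511 in CCE, under gene models annotated as non-coding. RiboMinus libraries of the tissues overlapped for Tsix and for these 3, and Drr1 had only 1 RiboMinus exon tag.

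Introns also carry microRNAs, which are cut from the intron itself. The annotation placed 472 microRNAs in introns of 321 protein-coding genes, and introns of 303 of these hosts were considered. They were higher in FH in 130 and lower in 7, with a median log2 ratio of 0.97. Introns of all genes were higher in 23.8% and lower in 4.89%, with a median of 0.54. Exons were called in the same direction in 70 of the 130 and 6 of the 7, where for all genes with introns called this was so in 55.5% of higher and 92% of lower. On the scale of coding exons 199 hosts were higher and 2 lower, where 41.3% and 2.9% of all genes were. After centring 92 hosts were higher and 24 lower, where 14.9% and 9.86% of all genes were. The values are sums over all introns of a host, and the intron that holds a microRNA was not counted alone. Hosts were not matched to other genes for intron length. Over genes with enough tags in all 4 counts, the median intron log2 ratio was 0.01 under 5 kb of introns and 1.40 over 100 kb. The part of length in the host counts was not tested. Mature microRNAs were not measured. The hosts with the largest higher introns were Nrxn3, Lingo2, Gad2 and Htr2c, all expressed in neurons. Lingo2 had 15755 intron tags in FH and 30 in CCE and was 299-fold higher (209.6 to 444). Htr2c, a serotonin receptor, had 1202 intron tags in FH and 0 in CCE with 236 exon tags in FH and 1 in CCE, and was at least 228-fold higher in introns. The hosts with the largest lower introns were Klf9, Sfmbt2, Dmc1 and Slc2a1. On the scale of the median gene the intron log2 ratios were -0.69 for Sfmbt2, -0.76 for Dmc1 and -0.53 for Slc2a1, and these 3 calls were lost. In the summed RiboMinus tags the introns of Dmc1 went the other way, at 2.30 (1.08 to 5.13). Klf9, a Krueppel-like factor, was 18.3-fold lower (15.7 to 21.4) in exons and 9.58-fold lower (7.63 to 12.2) in introns. Sfmbt2, an imprinted gene of extra-embryonic tissue with a large microRNA cluster in an intron, had 1403 intron tags in FH and 2055 in CCE and was 7.40-fold lower (6.60 to 8.32) in exons and 2.57-fold lower (2.40 to 2.75) in introns. Slc2a1, the glucose transporter GLUT1, was 7.62-fold lower (7.34 to 7.92) in exons and 2.30-fold lower (2.15 to 2.46) in introns, and its exon log2 ratio of -2.93 was -1.93 with repeated positions counted once.

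RefSeq sequences were matched for 5 of the 134 microRNAs in the 8 named hosts. They are shown because their hosts' introns differed in sum, with the seed (bases 2 to 8) in capitals, and no 2 of them share a seed.
mmu-miR-876-5p: uGGAUUUCucugugaaucacua
mmu-miR-764-5p: gGUGCUCAcauguccuccu
mmu-miR-1298-5p: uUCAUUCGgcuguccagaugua
mmu-miR-448-3p: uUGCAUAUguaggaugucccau
mmu-miR-1192: aAACAAACaaacagaccaaauu
The first lies in an intron of Lingo2 at chr4:36592406-36592486 of mm9, minus strand. The next 3 lie in introns of Htr2c at chrX:143436802-143436909, chrX:143499448-143499545 and chrX:143592753-143592864, plus strand, where all introns of the host together had 1202 tags in FH and 0 in CCE. The last lies in an intron of Klf9 at chr19:23223921-23224041, plus strand, where all introns of the host together had 89 intron tags in FH and 486 in CCE.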

How the data were processed

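RNA of CCE cells and of FH was depleted with Ribo-Zero, hydrolysed, sequenced as single reads and aligned to mm9 with Bowtie by the authors, who deposited 1 line for each tag with a single place in the genome. The score deposited by the authors is constant within a file and was left aside, so the counts are counts of lines. End minus start was 51 in the Ribo-Zero files. Tags carry no strand, so antisense transcripts count toward a gene. Tags on the mitochondrial chromosome were left out. Tags were placed by their midpoint in merged exons of GENCODE M1 genes without bases that are exon of another gene, and in introns without bases that lie in another gene, for genes with at least 500 such bases. RPKM was computed here. Ratios of FH to CCE were scaled to tags without the mitochondrial chromosome and given exact 95% intervals from the binomial share of the FH tags (Clopper-Pearson). At least 10 tags in the 2 libraries were required, and a count of 0 was set to 3 tags for a bound. The depth of 28708715 and 48426051 tags leaves wide intervals only where a library has a few tags. The intron minus exon difference, its limits by a normal approximation, and the search of 3′UTRs for microRNA sites were added after the data were seen. Genes were named by rank of the interval end nearest to a ratio of 1 within each class (8 in each direction in both, 5 for parting classes, 6 for low abundance, 4 for non-coding genes and hosts), without clone names and, outside low-abundance and non-coding genes, without genes in which 1 kb held over 25% of intron tags. Members of the lists were also named, and a few of them are not reported here. The 6 genes with the most extreme intron minus exon difference in each direction, Nr6a1 among them, were ranked after their values were seen. The members and the lists were chosen with earlier results of these data known. Alternatives were other scales, repeated positions counted once, other minimums and limits, overlaps kept, whole tags, the intergenic level taken off introns, and RiboMinus tags summed per tissue. The RiboMinus libraries, of 920424 to 2473448 tags, include the same cDNAs sequenced at 2 places and are not independent. No replicate could be left out, since each tissue has 1 Ribo-Zero library. The steps were tested on simulated data. Python 3.11.15 was run with matplotlib 3.10.9, scipy 1.17.1, pandas 2.3.3 and numpy 2.4.6, and sequences are those of RefSeq for GRCm38.p6 or of mm9.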

Additional observations from a re-analysis of the deposited data

Results flagged for a closer look

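Signal lay outside the genes compared. The mitochondrial chromosome held 8.23% of all unique tags in CCE and 4.54% in FH, which were left out of every ratio. Bases at least 10 kb from any annotated gene held 1.2% of the tags outside the mitochondrial chromosome in CCE and 2.2% in FH. With 1 library per tissue no difference between them was tested.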

How the results depend on the processing

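No paired analysis was possible because each tissue has 1 Ribo-Zero library and no test was made, and no replicate could be left out. Against 2694 higher and 3620 lower in exons, 3450 and 710 in introns, 1885 and 596 in both, and 10 in opposite directions, a limit of 4-fold gave 1603 and 984, 1587 and 287, 1058 and 235, and 0, and 412 and 161 low-abundance genes. The scale of tags in coding exons gave 1685 lower in exons, 5998 higher and 421 lower in introns, 343 lower in both, 225 lower at low abundance, and medians of 0.13 in exons, which reversed, and 1.12 in introns. Setting the median ratio of coding exons to 1 gave 1475 lower in exons, 6574 and 386 in introns, 2924 and 318 in both, 4 in opposite directions, 1194 and 205 at low abundance, and medians of 0.23, which reversed, and 1.22. Both follow from the scale alone. Counting repeated positions once gave 5 in opposite directions, 478 higher at low abundance, medians of -0.76 and 0.23, and intron shares of 34.1% in CCE and 56.1% in FH. Centring exons and introns each on their own median gave 1981 lower in exons, 2161 and 1431 in introns, 927 lower in both and 4 in opposite directions. Of the genes called in exons 42.7% were higher, and of those called in introns 82.9%. These shares were 68.7% and 93.4% on the scale of coding exons, 72.6% and 94.5% on that of the median gene, 31.8% and 73.4% with repeated positions counted once, 62.0% and 84.7% at 4-fold, and 63.3% and 60.2% after centring. Whole tags in place of midpoints gave intron shares of 21.0% and 43.2%. The RiboMinus tags, summed over sheared and hydrolysed libraries in unequal parts, gave 15.6% and 31.2%, and an intron minus exon median of 0.90. Other minimums, overlaps kept and the 50 genes with most tags left out kept the counts in exons, in introns, in both and in opposite directions within 1.5 times, and of these only the removal of the minimum was tried on low-abundance counts, which it also kept so. With the intergenic level taken off, 8 of 37 intron ratios of named genes moved beyond their interval, and Fbxl13, Hs3st1, Neb and Rmst by over 1.5 times, to log2 values of -1.13, 3.55, 3.35 and 7.47. Of 148 exon and intron ratios of named genes, 61 moved beyond their interval with repeated positions counted once, and 25 of the 148 moved by over 1.5 times.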
